A study of Anguilla anguilla with 11 samples.

Results

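The endothelin system of the European eel rete mirabile was followed through its peptide precursors, its receptors and the enzymes that release the active peptide. Of 45974 predicted genes, here called transcripts, 20 carried an endothelin name. The names edn1, edn2, ednra, ednrb, ece1 and ece2 gave 14 of them, and the other 6 had "endothelin" in their description only. The family was taken up because silver-against-yellow values of edn2 in these same libraries were already known, so it was selected on that contrast. For this reason the stage differences of all members are given as a description with no test and no p, and for this contrast counts of calls are printed only as background. Measures that the choice did not use, such as the difference between the sets of libraries, were tested.

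Rete tissue came from female European eels (Anguilla anguilla) caught in Lake Constance and held in freshwater for some days. The yellow group holds 5 eels labelled as yellow eels, and the silver group holds 6 eels past the change of form that precedes the spawning migration. How far each yellow eel had moved towards this change is not given by the labels. All eels were anaesthetised, decerebrated and spinally pithed, and no treatment was compared. In all of them the rete vessels were cannulated and then flushed with heparinised saline until no blood cells were seen. Messenger RNA of 1 eel was sequenced per library. Library titles fall into a set FG1835, with yellow eels 1 to 3 and silver eels 1 to 3, and a set FG1907, with yellow eels 4 and 5 and silver eels 4 to 6. All eels were caught in the wild, so that stage and the body size that goes with it cannot be told apart here.

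The rete mirabile is a countercurrent bundle of capillaries that supplies the gas gland of the swimbladder. Endothelins are short peptides that are best known as strong and lasting constrictors of blood vessels. A long precursor is first trimmed by proteases of the furin type, and a converting enzyme, a membrane-bound zinc protease, then makes the cut that yields the active peptide. In mammals the A receptor (ednra) sits mainly on smooth muscle cells and pericytes and drives contraction through Gq proteins, phospholipase C and calcium. The B receptor (ednrb) in mammals is prominent on endothelial cells, where it releases nitric oxide and prostacyclin and removes the peptide from the blood.

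The raw counts summed to 9360429 to 12438185 per library (median 10555968). Values are relative expression values, that is counts divided by the size factor of the library, and a value of 50 was taken as the limit below which a transcript was called low. Of the 20 transcripts, 13 had a mean above this limit. A further transcript, ecel1 (g14278), lay under it but was abundant enough to be fitted, so that 14 were fitted. The other 6 had 30 counts or fewer over all 11 libraries together. Lengths of the gene models were not used here, so levels are compared between libraries. Transcripts are ordered by their values only to choose which of them to describe, and this order is not one of levels per length. Names are those of the best hit in other species, and predicted genes that share a name may divide the reads of 1 gene between them, so that the values of the ece1, ece2, ednra and ednrb transcripts are uncertain to that extent.

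Silver eel 5 stood apart from the other 10 libraries in its cell type markers. Its 13 endothelial transcripts summed to a relative expression value of 31552, the lowest of all libraries, against 41718 to 61210 in the others. Its 28 mural transcripts (smooth muscle and pericytes) summed to 114126 against 42781 to 106206, its 11 fibroblast transcripts to 47934 against 13840 to 30588, and its 7 Schwann cell transcripts to 244 against 72.3 to 148. The sums hide members that went the other way: 11 of the 28 mural, 5 of the 11 fibroblast and 4 of the 7 Schwann cell transcripts were highest in silver eel 5, while the leading mural transcripts tagl (g17080) and acta (g12122) were at 0.929 and 0.851 of the mean of the other libraries and the pericyte marker rgs5 (g3655) at 0.175. Of the leading endothelial transcripts, cld5 (g6920) was at 0.327 and vwf (g357) at 1.43 of that mean. Leukocyte markers also had their highest sum there, with 4428 against 1405 to 3948, and 3 of the 10 transcripts were highest there. Of the mural transcripts only 17 of 28 were abundant enough to be fitted, and of the Schwann cell transcripts only 2 of 7. Red cell markers were at 492 within the range of 26.0 to 744 of the others, as were pigment cell markers at 38.6 (3.64 to 122) and epithelial markers at 23035 (18175 to 25964). Silver eel 6 lay at the opposite ends, with the highest endothelial sum (61210) and the lowest mural (42781) and fibroblast (13840) sums. Silver eel 2 was close to it in the endothelial (60669) and fibroblast (15087) sums, but not in the mural sum (96283). Between the stages the endothelial sum overlapped, with 41718 to 56189 in yellow and 31552 to 61210 in silver eels, and so did the mural sum, with 56939 to 106206 and 42781 to 114126. In tissue of mixed cells, fewer cells of a type and less RNA per cell cannot be told apart.

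The precursor of endothelin-2 had the largest log2 stage difference of the 14 fitted members. Transcript edn2 (g21817) had relative expression values of 306, 289 and 307 in yellow eels 1 to 3 and of 164 and 121 in yellow eels 4 and 5. In the same set as yellow eels 1 to 3, silver eels 1 to 3 had 406, 790.0 and 706. In the other set, silver eels 4 to 6 had 732, 290.0 and 618. Only silver eel 5 reached down into the yellow range, and the other 5 of 6 silver eels lay above the highest yellow eel. Within each set the stages did not overlap, with silver above yellow both times.

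The mean of edn2 was 590 ± 199 (SD, n = 6) in silver and 237 ± 88.4 (SD, n = 5) in yellow eels, a 2.49-fold difference. On the log2 scale of the edgeR fit the difference was 1.30 (SE 0.33), and it was 1.44 (SE 0.28) with the library set as a term. It was 1.06 (SE 0.24) in FG1835 alone and 1.95 (SE 0.46) in FG1907 alone. Leaving out any single library gave 1.14 (without yellow eel 5) to 1.44 (without silver eel 5). The order of the means was yellow FG1907 (142 ± 30.7, n = 2), yellow FG1835 (301 ± 10.1, n = 3), silver FG1907 (547 ± 230, n = 3) and silver FG1835 (634 ± 202, n = 3). The first pair of neighbours was separate in its values, and the other neighbours overlapped.

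Endothelin-1, in mammals the main vascular endothelin and a product of endothelial cells, is encoded by edn1 (g27821). Its relative expression values were 237, 165 and 214 in yellow eels 1 to 3 and 241 and 139 in yellow eels 4 and 5. Silver eels 1 to 3 had 392, 78.0 and 313, so this set held both high silver values and the lowest value of all libraries. Silver eels 4 to 6 had 469, 621 and 600.2 and lay above every yellow eel. In all, 5 of 6 silver eels exceeded the highest yellow eel, and silver eel 2 fell below the lowest.

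The means of edn1 were 412 ± 202 (SD, n = 6) in silver and 199 ± 45.2 (SD, n = 5) in yellow eels, 2.07-fold apart. The log2 difference was 1.05 (SE 0.41), with 0.89 without silver eel 5 and 1.26 without silver eel 2 as the extremes when single libraries were left out. It was 0.34 (SE 0.49) in FG1835 alone, where the standard error is larger than the difference, and 1.59 (SE 0.38) in FG1907 alone. The order of the means was yellow FG1907 (190.0 ± 72.0), yellow FG1835 (205 ± 36.8), silver FG1835 (261 ± 163) and silver FG1907 (563 ± 82.2). The first 3 overlapped in their values, and silver FG1907 stood above all of them.

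The mixture of both ligands varied widely from eel to eel. The ratio of edn1 to edn2 ranged from 0.0988 in silver eel 2, where edn1 was lowest and edn2 highest, to 2.14 in silver eel 5, where edn1 was highest and edn2 lowest among silver eels. The median ratio was 0.777 in yellow and 0.803 in silver eels. Both precursors were thus above the yellow range together in silver eels 1, 3, 4 and 6, and 1 of them alone in silver eels 2 and 5.

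**Figure D1:**
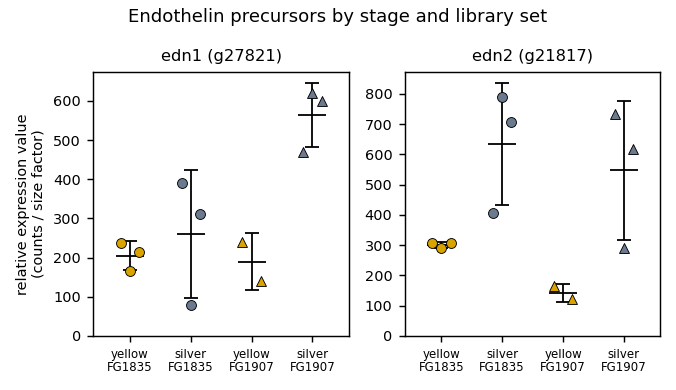
Relative expression values (counts divided by size factor) of the endothelin precursors edn1 and edn2 for each eel, by stage and library set; horizontal lines are means and bars are SD. Silver eels of edn2 lie above the yellow eels of the same set in both sets, while silver edn1 spans 78.0 to 621 and overlaps yellow in FG1835.

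The A receptor was represented by a pair of transcripts that differed in opposite directions between the stages. Transcript ednra (g11336) took on average 0.125% of all counts of a library (0.0904 to 0.193%). Its relative expression values were 11272, 9099 and 13367 in yellow eels 1 to 3 and 12595 and 13012 in yellow eels 4 and 5. Silver eels 1 to 3 had 14064, 14389 and 11520, and silver eels 4 to 6 had 20913, 12427 and 13354. The stages overlapped widely, and silver eel 4 alone was far above the rest.

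The stage means of ednra (g11336) were 14444 ± 3341 (SD, n = 6) in silver and 11869 ± 1740 (SD, n = 5) in yellow eels. The log2 difference was 0.27 (SE 0.21) and was 0.14 without silver eel 4. With a coefficient of variation of 22.1% over the 11 libraries, this transcript was among the steadier members.

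The second A receptor transcript, ednra (g6260), was lower in silver eels. It had relative expression values of 159, 239 and 208 in yellow eels 1 to 3 and 159 and 158 in yellow eels 4 and 5, against 96.0, 107 and 167 in silver eels 1 to 3 and 81.1, 43.8 and 120 in silver eels 4 to 6. Of 6 silver eels, 5 lay below the lowest yellow eel and silver eel 3 lay among the yellow eels. The means were 103 ± 41.2 (SD, n = 6) and 185 ± 37.3 (SD, n = 5), 1.80-fold higher in yellow eels. The log2 difference of -0.86 (SE 0.30) was -0.71 (SE 0.27) in FG1835 alone and -0.96 (SE 0.48) in FG1907 alone, and stayed between -1.06 and -0.70 when any single library was left out.

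The proportion of the A receptor transcripts shifted accordingly. The ratio of g11336 to g6260 was 38.0 to 82.5 in yellow eels (median 70.7) and 68.8 to 284 in silver eels (median 140). It differed by library set as well, with medians of 69.8 in FG1835 and 111 in FG1907. The lowest ratio was in yellow eel 2 and the highest in silver eel 5. Because each ratio is taken within a library, the size factor has no part in it.

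The B receptor transcripts showed no common direction. The one with the highest values, ednrb (g12842), had relative expression values of 1545, 1253 and 1992 in yellow eels 1 to 3, 2709 and 2096 in yellow eels 4 and 5, 1780.2, 1899.8 and 1634 in silver eels 1 to 3 and 3133, 1039 and 1661 in silver eels 4 to 6. Silver eels held both the highest and the lowest value, and the stage means of 1858 ± 692 (SD, n = 6) and 1919 ± 558 (SD, n = 5) differed by less than the spread between eels. The log2 difference was -0.056 (SE 0.27), with 0.14 in FG1835 and -0.29 in FG1907.

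A single library set the stage value of ednrb (g6531). Its relative expression values were 29.7 to 124 in yellow eels (median 65.9) and 31.3 to 102 in silver eels other than silver eel 5, which had 612. This is 11.8-fold the mean of the other silver eels (51.8 ± 28.6, SD, n = 5), while with silver eel 5 the silver mean was 145 ± 230 (SD, n = 6) against 68.0 ± 36.7 (SD, n = 5) in yellow eels. The log2 difference of 1.12 (SE 0.79) became -0.40 without silver eel 5. The summed fibroblast, mural, Schwann cell and leukocyte markers were highest in the same library, and the endothelial sum was lowest. However, only 11 of 28 mural transcripts were highest there, rgs5 was low, and only 2 of 7 Schwann cell transcripts were abundant enough to be fitted. In mammals the B receptor is also carried by Schwann cells and other derivatives of the neural crest. Pigment cell markers were at 38.6 in this library, within the range of 3.64 to 122 of the others. The part of any cell type in the value of ednrb (g6531) was not tested.

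Silver eel 5 was highest for ednrb (g4072) too, with a relative expression value of 179, followed by silver eel 6 with 152. The other 4 silver eels had 31.3 to 59.9 and the yellow eels 41.7 to 89.1. Its log2 difference was 0.27 (SE 0.47) over all libraries and -0.092 without silver eel 5. In FG1835 it was -0.60 and in FG1907 0.99, so the direction was opposite in the sets. The last B receptor transcript, ednrb (g3149), had 0 to 7 counts per library and 30 in all, which is too few for a comparison.

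**Figure D2:**
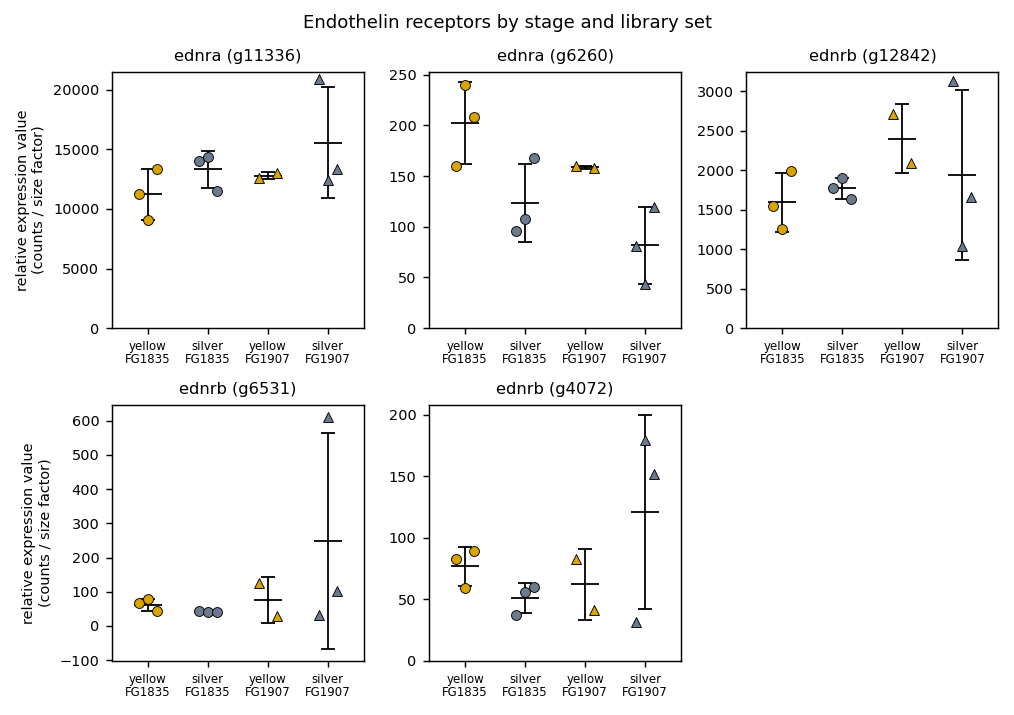
Relative expression values (counts divided by size factor) of the A receptor transcripts (ednra) and the B receptor transcripts above the limit (ednrb) for each eel, by stage and library set; horizontal lines are means, bars are SD, and each panel has its own axis. For ednrb (g6531) a single silver eel of FG1907 lies at 612, so that its SD bar reaches below 0, and for ednra (g6260) the silver eels lie at 43.8 to 167 against 158 to 239 in yellow eels.

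The balance of A to B receptor transcripts was compared as the ratio of the summed ednra to the summed ednrb values within a library. It ranged from 4.37 in yellow eel 4 to 7.60 in silver eel 1. As log2 ratios, FG1907 had 2.604 ± 0.28 (SD, n = 5) and FG1835 2.78 ± 0.090 (SD, n = 6), a difference of -0.18 that an exact two-sided permutation test over all assignments of the libraries did not set apart (p = 0.156, 1 test, smallest possible p 0.00433). Between the sets the difference was -0.36 within yellow and -0.080 within silver eels. By stage the log2 ratio was 2.80 ± 0.078 (SD, n = 6) in silver and 2.58 ± 0.26 (SD, n = 5) in yellow eels, 0.22 apart. Unlogged, yellow eels spanned 4.37 to 6.73 and silver eels 6.57 to 7.60, so the stages overlapped. Silver eel 5, at 6.79, had an ednrb sum that held 612 from g6531 beside 1039 from g12842. Its ratio, and the narrow silver spread, thus rest in part on that single high value of g6531. Lengths of the gene models do not cancel where transcripts of a name change in share.

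Converting enzyme 1, the form that in mammals works at the surface of endothelial cells, was represented by 4 transcripts, and none had a stage difference larger than its standard error. Transcript ece1 (g13433) had relative expression values of 1352 to 2156 in yellow eels (median 1643) and 1291 to 2289 in silver eels (median 1654). Its means of 1696 ± 319 (SD, n = 5) and 1766 ± 379 (SD, n = 6) lay 0.052 (SE 0.20) apart on the log2 scale. The log2 differences of ece1 (g28969), ece1 (g18660) and ece1 (g29400) were -0.045 (SE 0.27), 0.0066 (SE 0.28) and -0.051 (SE 0.23).

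In contrast to the stage, the library set separated ece1 (g28969). Its relative expression values were 192, 240.2 and 235 in yellow eels 1 to 3 and 218, 223 and 211 in silver eels 1 to 3, but 148 and 109 in yellow eels 4 and 5 and 140.2, 118 and 171 in silver eels 4 to 6. All 6 libraries of FG1835 (220 ± 17.4, SD) lay above all 5 of FG1907 (137 ± 25.0, SD). This was so for 1 of the 14 members, while sets without overlap were found for 21.1% of all transcripts fitted (5065 of 23981), so that it is nothing particular to the family. The fitted log2 difference of FG1907 against FG1835, with stage in the model, was -0.69 (SE 0.17, edgeR adjusted p = 0.00691).

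Transcript ece1 (g18660) had 183 ± 29.8 (SD, n = 6) in FG1835 and 124 ± 33.2 (SD, n = 5) in FG1907, with overlapping values of 149 to 225 and 80.7 to 168. Its log2 difference was -0.59 (SE 0.21, edgeR adjusted p = 0.0449). This call is close to the threshold, since it was lost in 9 of 11 fits that left out a library and held when silver eel 3 or silver eel 6 was the one left out. The sister transcripts g13433 and g29400 gave 0.16 (SE 0.18) and -0.19 (SE 0.21) between the sets, with edgeR adjusted p of 0.505 and 0.498.

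Transcripts of the same name therefore differed in their response to the library set. The ratio of ece1 g13433 to g18660 was 9.09 on average in FG1835 and 15.0 in FG1907, and ranged from 7.87 in silver eel 2 to 17.3 in yellow eel 4. By comparison, the ratio of g28969 to g18660 stayed between 0.992 and 1.42 over all libraries, and that of g29400 to g18660 between 0.615 and 1.18. Whether these predicted genes are parts of a single gene was not tested.

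Converting enzyme 2, in mammals mainly an enzyme of the nervous system and of secretory vesicles, was represented by a pair of transcripts. Both were named from a human entry that also includes a methyltransferase-like region. Transcript ece2 (g3338) had relative expression values of 3567, 2417 and 2131 in yellow eels 1 to 3 and 2234, 2509.9 and 2026 in silver eels 1 to 3. In the other set, yellow eels 4 and 5 had 4347 and 2544 and silver eels 4 to 6 had 2880.3, 4204 and 5514. The FG1907 libraries were higher on average (3898 ± 1202, SD, n = 5, against 2481 ± 561, SD, n = 6), with an overlap that comes from yellow eel 1.

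The log2 difference of ece2 (g3338) between the sets was 0.65 (SE 0.23, edgeR adjusted p = 0.0420). It was lost in 7 of 11 fits that left out a library and held when yellow eel 1, yellow eel 5, silver eel 4 or silver eel 5 was the one left out. By stage its log2 difference was 0.10 (SE 0.30). Transcript ece2 (g3339) ranged from 96.2 to 218.5 with no separation by set (0.11, SE 0.27, edgeR adjusted p = 0.771) and a stage difference of 0.035 (SE 0.28). The ratio of g3338 to g3339 was 14.8 to 29.95, with means of 17.6 in FG1835 and 25.5 in FG1907.

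**Figure D3:**
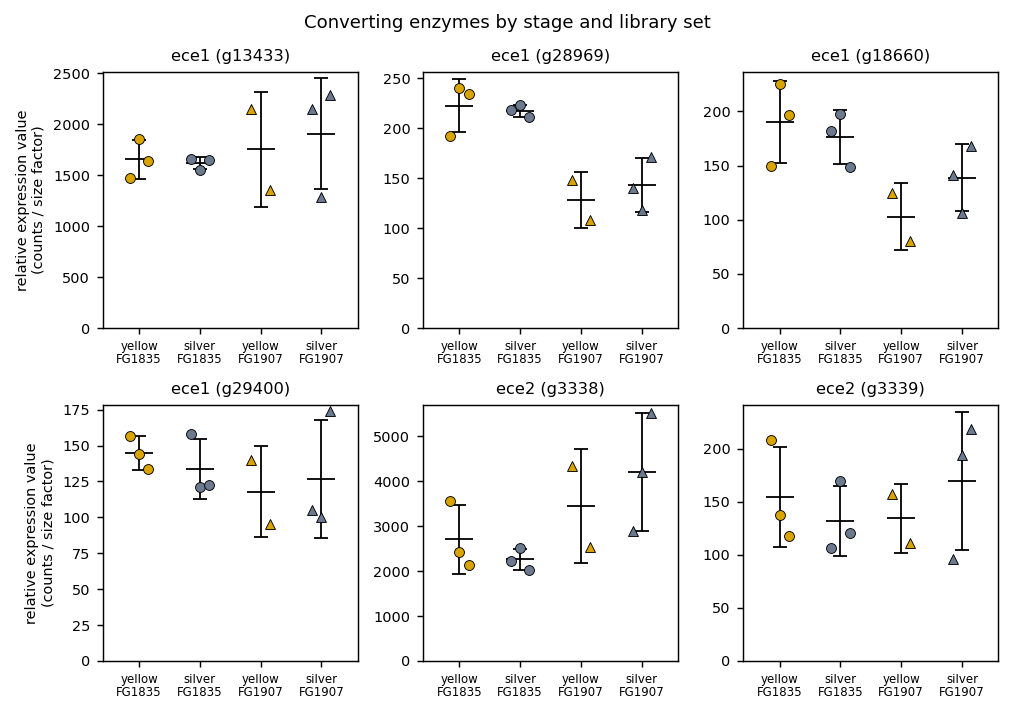
Relative expression values (counts divided by size factor) of the 6 converting enzyme transcripts for each eel, by stage and library set; horizontal lines are means, bars are SD, and each panel has its own axis. For ece1 (g28969) the FG1835 eels lie at 192 to 240.2 and the FG1907 eels at 109 to 171, and the stages overlap within both sets.

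Members that carry the name endothelin by likeness only were scarce in the rete. In mammals, ECEL1 is a protease of nerve cells that resembles the converting enzymes, and etbr2 stands for a receptor of glial cells that resembles the B receptor. Transcript ecel1 (g14278) had relative expression values of 17.3 to 46.4 in yellow eels and 2.46 to 127 in silver eels, with the highest in silver eel 5, 7.67-fold the mean of the other silver eels. Its log2 stage difference of 0.14 (SE 0.77) was -0.97 without silver eel 5. Of the remaining transcripts, ecel1 (g16538) had 30 counts over all libraries, ecel1 (g40849) had 9, an unnamed one described as like converting enzyme-like 1 (g39615) had 4, and etbr2 (g12785) and etbr2 (g18168) had 9 and 3. For all 5 the counts per library ranged from 0 to 11, so that no difference was detectable at this depth.

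Over the 14 fitted members, 10 stage differences were above 0 and 4 below, with a median of 0.078 on the log2 scale against 0.0046 for all 23981 transcripts fitted, of which 12189 were above 0. Of the 14 members 0 were called by edgeR at an adjusted p under 0.05, beside a background of 0% (0 of 23981 transcripts, with 515 at an unadjusted p under 0.05). limma also called 0 transcripts, while DESeq2 called 21, of which 0 were members. Nothing is read from these counts, since the family was chosen on this contrast.

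Values of the stages that did not overlap at all over the 11 libraries were found for 0 of the 14 members, against 0.238% of all transcripts fitted (57 of 23981). Values that did not overlap in either set, in the same direction, were found for 1 member, edn2, against 1.04% of all transcripts fitted (249 of 23981). Since edn2 was the transcript that led to the choice of the family, this too is a description.

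**Figure D4:**
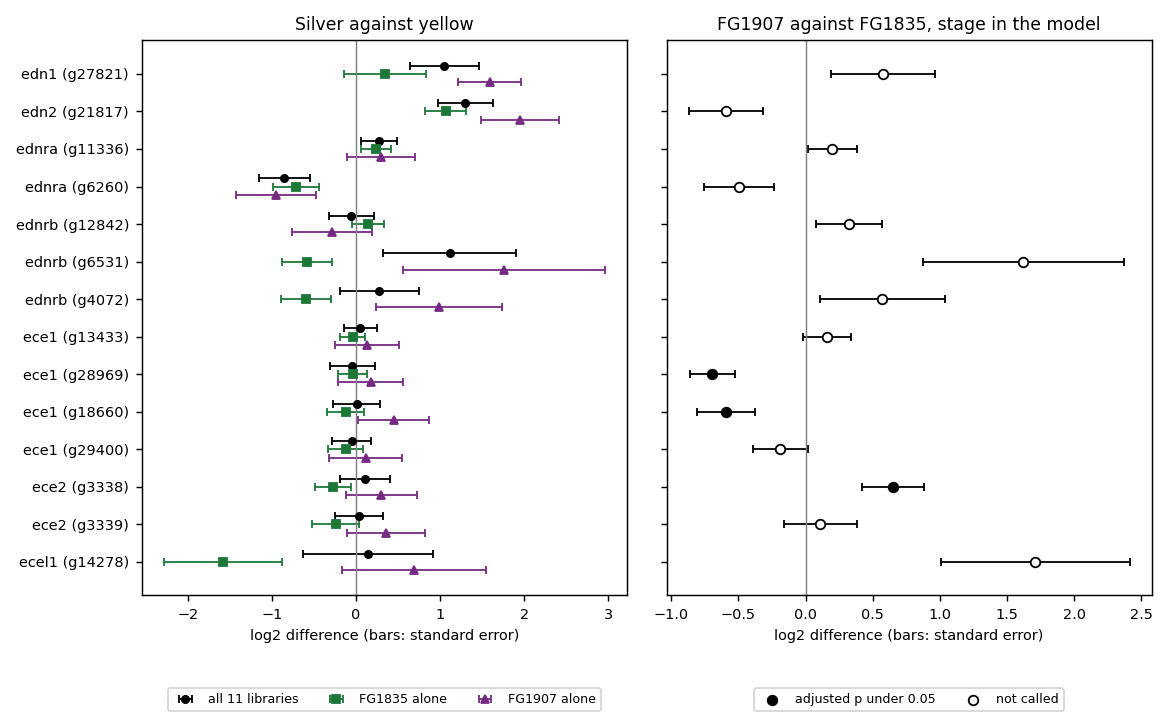
Log2 differences of the 14 fitted members with standard errors as bars. Left, silver against yellow over all 11 libraries and in each library set alone. Here edn1, edn2 and ednra (g11336) lie above 0 in all 3, and ednra (g6260) lies below 0 in all 3. All other members have opposite signs in the sets. For ece1 (g13433), ece1 (g28969) and ece1 (g29400) both of these values are smaller than their standard errors. The test for a change of the stage difference between the sets called 0 of the 14 members. Right, FG1907 against FG1835 with stage in the model; filled points mark the 3 members with an adjusted p under 0.05.

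The library set, which had no part in the choice of the family, was called for 3 of the 14 members, 1 higher in FG1907 (ece2 g3338) and 2 lower (ece1 g28969 and g18660). Over all transcripts fitted the share was 38.6% (9250 of 23981, with 4685 higher and 4565 lower), so that the members did not stand out. All 3 calls were among the 6 converting enzyme transcripts, and no ligand or receptor was called with all 11 libraries and stage in the model by edgeR. The calls of ece1 (g18660) and ece2 (g3338) were lost in 9 and 7 of 11 fits that left out a library. No pattern by role is read from so few calls. DESeq2 called 5 members, adding ednrb (g6531) and ecel1 (g14278), beside 10457 of all 23981 transcripts. With limma 3 members were called, beside 9529 of 23981. What the sets differ in is not given by the labels. The methods name different sequencing systems and read layouts, and set, sequencing and sampling cannot be told apart.

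The ligands pointed in opposite directions between the sets, with log2 differences of 0.58 (SE 0.39, edgeR adjusted p = 0.253) for edn1 and -0.59 (SE 0.28, edgeR adjusted p = 0.106) for edn2. For edn2 this was -1.20 (SE 0.23, edgeR adjusted p = 0.00797) within yellow eels and -0.29 (SE 0.37) within silver eels. The fit of yellow eels alone called 5849 of 19080 transcripts. Transcript edn2 was also called without silver eel 1 (edgeR adjusted p = 0.0347) or silver eel 4 (0.0422), where 7865 of 23479 and 8610 of 23650 transcripts were called. For edn1 the set difference was -0.24 (SE 0.30) within yellow and 1.04 (SE 0.51) within silver eels. The receptors had values from -0.50 (ednra g6260, edgeR adjusted p = 0.146) to 1.62 (ednrb g6531, edgeR adjusted p = 0.103), the latter being 0.48 without silver eel 5. Other settings called ednrb g6531 without yellow eel 5 (edgeR adjusted p = 0.0447) and with no stage term (0.0443), and ednrb g12842 without silver eel 5 (0.0475). Over all transcripts these settings called 7134 of 24525, 9563 of 23981 and 11281 of 23533. The largest difference, 1.71 (SE 0.70, edgeR adjusted p = 0.0705), was that of ecel1 (g14278), and it was 0.99 without silver eel 5.

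Whether the stage difference itself changed with the library set was tested as an interaction. Of the 14 members 0 were called, beside 0% of all transcripts fitted (0 of 23981, with 1185 at an unadjusted p under 0.05, of which 0 were members). DESeq2 called 22 transcripts and limma 0, and neither called a member. The fitted interactions were 1.25 (SE 0.69) for edn1 and 0.89 (SE 0.50) for edn2, both with an edgeR adjusted p of 0.920. The largest, 2.33 (SE 1.28, edgeR adjusted p = 0.920), was that of ednrb (g6531), which was 0.39 without silver eel 5.

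The pathway around the receptors was described with 6 lists of names. Between the stages 0 transcripts of any list were called, at the background of 0%, and the medians were close to that of all transcripts. Of the signalling chain of Gq, phospholipase C and calcium, 22 of 52 fitted transcripts were above 0 and 30 below, with a median log2 difference of -0.040. The members with the highest values, gna13 (g1159) and gna12 (g2316), encode G protein alpha subunits and had stage differences of 0.10 (SE 0.18) and 0.013 (SE 0.30).

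Contraction genes were evenly split, with 30 of 62 above 0 and 32 below and a median of -0.0031. Here cald1 (g5765), which encodes the actin-binding caldesmon, had a relative expression value of 28033 ± 7687 (SD, n = 6) in silver and 22525 ± 4622 (SD, n = 5) in yellow eels, a log2 difference of 0.31 (SE 0.26). The smooth muscle actin acta (g12122) had 12047 ± 6462 (SD, n = 6) and 19580.1 ± 8102 (SD, n = 5), a log2 difference of -0.70 (SE 0.40). Neither difference is large beside the spread between eels.

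Genes of nitric oxide, prostacyclin and cGMP, the relaxing arm of the B receptor, had 10 of 19 above 0 and a median of 0.056. Prostacyclin synthase, ptgis (g4144), had 3151 ± 3791 (SD, n = 6) in silver and 1248 ± 844 (SD, n = 5) in yellow eels and a log2 difference of 1.32 (SE 0.73). The phosphodiesterase pde5a (g7621), which breaks down cGMP, had 0.056 (SE 0.19). Among genes for peptide processing and breakdown 4 of 8 lay above 0 (median 0.017), and the transcripts of the lysosomal carboxypeptidase ppgb, g14296 and g22538, had -0.044 (SE 0.19) and 0.10 (SE 0.25).

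Receptor desensitisation genes had 7 of 14 above 0 and a median of 0.028. Its leading members rgs4 (g3656) and rgs5 (g3655) encode regulators that shorten G protein signals, rgs5 being typical of pericytes, and had stage differences of -0.64 (SE 0.33) and -0.53 (SE 0.53). Regulators of endothelin transcription had 32 of 54 above 0 and a median of 0.066. In this list the shear-responsive factor klf4 (g14262) had 0.37 (SE 0.49) and the hypoxia-inducible factor epas1 (g13321) had 0.22 (SE 0.36).

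Between the library sets the lists differed more. The share called was 40.4% in the Gq list (0 higher and 21 lower in FG1907), 45.2% in the contraction list (6 higher, 22 lower), 42.6% among the regulators of transcription (3 higher, 20 lower) and 21.1% in the nitric oxide list (2 higher, 2 lower), beside 38.6% of all transcripts. The small lists of peptide processing and desensitisation had 50% (1 higher, 3 lower) and 57.1% (2 higher, 6 lower). The median log2 difference was -0.74 in the Gq list, -0.51 in the contraction list and -0.90 among the regulators, against 0.025 for all transcripts. In the peptide processing list it was -0.91, in the desensitisation list -0.18 and in the nitric oxide list 0.091, so the lists did not all point the same way. Of the cell type markers, mural transcripts had a median of -0.92 (52.9% called, 0 higher and 9 lower of 17 fitted). Endothelial ones had -0.49 (53.8%, 2 higher and 5 lower of 13) and epithelial ones -0.18 (41.7%, 2 higher and 3 lower of 12). Below the 38.6% of all transcripts were fibroblast markers (median 0.39, 9.09%, 1 higher and 0 lower of 11). Leukocyte markers were below it too (median 0.23, 11.1%, 1 higher and 0 lower of 9). No red cell, pigment cell or Schwann cell transcript was called (4, 2 and 2 fitted). The part of these cell types in the lists or in the members was not tested. Both rgs5 (-1.66, SE 0.30, edgeR adjusted p = 0.00149) and rgs4 (-0.83, SE 0.24, edgeR adjusted p = 0.0167) were lower in FG1907. Lists can share transcripts, so their values are not separate observations. For example, acta (g12122) is in the contraction and mural lists, and rgs5 (g3655) in the desensitisation and mural lists. Of the list members named here, ppgb (g22538) was higher there (0.63, SE 0.17, edgeR adjusted p = 0.0104).

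For the transcript of each name with the highest mean value, the transcripts with the most similar course over the 11 libraries were looked up among 13220 named ones above the limit, after the mean of each library set had been subtracted. These correlations are descriptions over libraries that share depth and set, and the highest of so many are high by selection. Stage means were not subtracted, so a stage difference like that of edn2, on which the family was chosen, stays in the values. For edn2 they were rn141 (r = 0.947), hsf1 (0.920), ns1ba (0.900), ttc7b (0.889) and amz2 (0.886), and without the subtraction r was 0.495 to 0.782. For edn1 they were c85cb (r = 0.924), itb7 (0.889), itb1 (0.864), c85ca (0.863) and scn2b (0.857), with 0.736 to 0.884 without the subtraction. Without silver eel 5, r was 0.886 to 0.958 for these partners of edn2 and 0.836 to 0.921 for those of edn1, but other transcripts then ranked among the first 5, with 2 kept for edn2 and 3 for edn1.

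For ednra (g11336) the most similar were tpp1 (r = 0.897), utro, hmr1, sfi1 and vgll4 (0.872). Those of ednrb (g12842) were fnbp2 (r = 0.978), ppm1f (0.973), smad5 (0.966), fbx22 and p66a (0.959). Among the enzymes, ece1 (g13433) was closest to gnpi2 (r = 0.959), ub2d2, gmpr2, megf6 and jub (0.934), and ece2 (g3338) to ma2a2 (r = 0.881), dca10, goga2, suv3 and gnas1 (0.873). Several of these partners rest on the subtraction of the set means, since without it r was 0.301 to 0.909 for those of ednra, 0.744 to 0.962 for ednrb, 0.451 to 0.924 for ece1 and -0.017 (goga2) to 0.936 for ece2. No transcript was named for more than 1 member.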

How the data were processed

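Rete mirabile RNA of 5 yellow and 6 silver eels was sequenced from stranded, polyA-selected libraries, 1 per eel. The authors aligned reads to the draft eel genome (TopHat2 2.0.13), filtered alignments (SAMtools 1.2), counted fragments per predicted gene (HTSeq 0.6.1p1) and tested for stage with DESeq. Raw counts were deposited for each library, together with a mean that the authors made by dividing counts by size factors, which is a signal as deposited. This mean was matched within 0.1% for 45974 of 45974 transcripts by counts over median-of-ratios size factors, here called relative expression values. The authors' fold changes and p-values were not used. The column FG1935_03 was read as the library FG1835_03, which has no other column. The extraction label speaks of gas gland, the tissue label of rete mirabile, which was followed.

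Members were found by name or description. The members and all lists were chosen with earlier results of these data known. Every member was named; for likeness, the 5 named transcripts with the highest Pearson correlation of log2(value + 1) were taken for the highest transcript of each name, and for each list its 2 transcripts with the highest mean values. The lists were those of peptide processing, Gq signalling, contraction, nitric oxide and prostacyclin, desensitisation, regulators of transcription and 8 cell types.

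Contrasts were fitted to raw counts over all transcripts that passed filterByExpr with edgeR 4.0.16 (TMM, quasi-likelihood test, Benjamini-Hochberg adjustment, threshold 0.05) in R 4.3.3. Stage was fitted without covariates, library set with stage, and their interaction with both. Each standard error is the log2 difference over the square root of F. Alternatives were other scaling, filters and robust estimation, DESeq2 1.42.0, limma 3.58.1, each set or stage alone, and each library left out. The edgeR fits were tested on simulated data in which changes were placed in more abundant transcripts only. Apart from these changes the simulated libraries had no difference between the sets, unlike the real ones. No result here rests on that test. Python 3.11.15, pandas 2.3.3 and scipy 1.17.1 were used for tables and the permutation test. The labels do not say whether libraries of a stage share a catch or a sampling day. Each p-value therefore sets a difference against the spread between these eels only.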

Additional observations from a re-analysis of the deposited data

Results flagged for a closer look

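Within each stage, the highest or lowest eel was compared with its nearest neighbour by Dixon's criterion for 40 groups with any spread. Chance would mark about 1 in 20 if values were normally distributed, which groups with few counts are not. The criterion marked 7, and this number is not read against chance. Of these, 3 came from silver eel 5: ednrb (g6531) with a relative expression value of 612 against 102 in the next silver eel, ecel1 (g14278) with 127 against 39.9, and ecel1 (g16538) with 11.5 against 2.35, the last from 11 counts. Transcript ednra (g11336) was marked in silver eel 4, with 20913 against 14389 in the next silver eel. The other 3 rest on 5 counts or fewer: etbr2 (g12785) with 4.64 in yellow eel 5 against 0.843, and etbr2 (g18168) with 0.909 in yellow eel 3 and 2.00 in silver eel 1, where all other eels of the stage had 0. No member had an adjusted p under 0.05 for a change of its stage difference between the library sets.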

How the results depend on the processing

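The direction of the stage difference of edn1, edn2, ednra (g11336) and ednra (g6260) was kept under every alternative run. The largest value of edn2 was 1.95 in FG1907 alone. The smallest values were 0.34 for edn1 in FG1835 alone and 0.14 for ednra (g11336) without silver eel 4. The number of transcripts called between the stages was 21 in DESeq2 and 0 to 1 when single libraries were left out, and that for the interaction was 22 in DESeq2, 2 without a filter and 0 to 1 when single libraries were left out. Between the library sets 548 of 17749 transcripts were called in silver eels alone and 5849 of 19080 in yellow eels alone. In all eels 9250 of 23981 were called, and both single stages had fewer libraries. In yellow eels alone the set difference reversed for edn1 (-0.24), ednrb g4072 (-0.44), ece1 g13433 (-0.040) and ece2 g3339 (-0.33), and the cause was not tested. With single libraries left out, it ran from -0.016 to 0.26 for ece2 g3339, and the interaction from -0.21 to 0.18 for ednra g11336, -0.60 to 0.074 for ednra g6260, -0.12 to 0.53 for ece1 g13433 and -0.040 to 0.52 for ece1 g29400, so none of these directions is settled. The call of ece1 (g28969) was lost in 1 of 20 alternatives, silver eels alone (adjusted p = 0.155), those of ece1 (g18660) and ece2 (g3338) in 11 and 10 of 20, with adjusted p of 0.0213 to 0.383 and 0.0190 to 0.589. Calls were gained for edn2 in 3 alternatives, ednrb g6531 in 3, ednrb g12842 in 1 and ecel1 g14278 in 2, the last with DESeq2 (adjusted p = 0.0181) and without yellow eel 1 (edgeR adjusted p = 0.0341). Of the 5 most similar transcripts, 4 or more were kept for 1 of 6 members both without centring and without silver eel 5. No paired analysis was possible because the labels give no number that joins a yellow with a silver eel. Depth limits the 6 members with 30 counts or fewer.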
